A study of Rattus norvegicus with 20 samples.

Results

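Transcripts of 3 genes were followed through the right (RV) and left (LV) ventricle of the rat heart: Atp2a2 (ENSRNOG00000001285), Ryr2 (ENSRNOG00000017060) and Gja1 (ENSRNOG00000000805). The rule names them as genes of calcium cycling and of the gap junction and uses no measured value, though results of these data were known when it was written. They are 3 of 30452 rows of the count table, and all 3 were among the 10929 genes that passed the filter on low counts. The study asked how each ventricle responds when monocrotaline (MCT) is used to model pulmonary hypertension. MCT is a plant alkaloid that injures the vessels of the lung and so loads the RV.

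The rats were male. At a weight of 250 g they received 60 mg/kg MCT or saline, and they were killed once their discomfort score was 7 or higher. Neither the strain nor the time between injection and death is given in the sources used here. The 4 groups were RV after MCT, RV after saline, LV after MCT and LV after saline, with 5 libraries in each, and the tissue was whole ventricle freed of the atria. The libraries read the 3′ ends of messenger RNA.

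Each heartbeat depends on calcium that leaves the sarcoplasmic reticulum, the calcium store of the muscle cell, and is pumped back into it. Ryr2 encodes the ryanodine receptor, the channel that releases the calcium. Atp2a2 encodes SERCA2, the pump that returns it so that the muscle relaxes, and reduced SERCA2 is a known feature of failing heart muscle. Gja1 encodes the connexin Cx43, the main gap junction protein of the ventricle, which carries the electrical impulse from cell to cell and is also made by cells other than muscle. In RNA from whole tissue, fewer cells of a type and less RNA per cell cannot be told apart.

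The stretches around the RefSeq start sites of Atp2a2 and Gja1 are printed because their mean levels in the LV lay on opposite sides of saline after MCT, although neither gene passed the test there. Each runs from 250 bases before to 50 bases after the start, 5′ to 3′, on the plus strand of build GRCr8. The Atp2a2 stretch is chr12:39733269-39733568 and the Gja1 stretch is chr20:36302314-36302613. Capitals mark the GC box (GGGCGG), the CCAAT box (CCAAT) and the AP-1 element (TGAGTCA) on either strand. The TATA box (TATAAA) was searched as well.
Atp2a2: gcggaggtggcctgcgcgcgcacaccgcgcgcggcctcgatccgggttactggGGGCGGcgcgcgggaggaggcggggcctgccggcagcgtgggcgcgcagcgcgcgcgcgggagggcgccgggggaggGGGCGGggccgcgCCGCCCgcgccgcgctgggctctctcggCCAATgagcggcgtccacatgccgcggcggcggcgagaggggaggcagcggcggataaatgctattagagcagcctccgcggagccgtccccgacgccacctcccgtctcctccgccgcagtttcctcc
Gja1: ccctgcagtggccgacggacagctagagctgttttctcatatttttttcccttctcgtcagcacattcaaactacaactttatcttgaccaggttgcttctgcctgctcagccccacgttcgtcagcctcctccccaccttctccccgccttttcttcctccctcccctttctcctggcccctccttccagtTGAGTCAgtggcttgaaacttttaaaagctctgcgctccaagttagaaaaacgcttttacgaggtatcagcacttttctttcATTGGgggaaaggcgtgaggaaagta

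The Atp2a2 stretch is 79.0% G and C, more than in 98.8% of the 33465 rat promoters of the table, and holds 52 CpG dinucleotides. It carries 3 GC boxes and 1 CCAAT that begins at base -79 from the start. The Gja1 stretch is 50.3% G and C with 10 CpG, and carries 1 AP-1 element that begins at base -58 and 1 CCAAT on the minus strand after the start. The Ryr2 stretch, chr17:63081277-63081576, is 73.0% G and C with 28 CpG and carries 3 GC boxes, 2 of which overlap. None of the 3 holds TATAAA. On either strand, a GC box was found in 33.1% of all promoters, CCAAT in 37.5%, TATAAA in 14.2% and the AP-1 element in 4.63%. These matches describe the letters only.

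Libraries held 3272420 to 9227104 counts. Levels are given as CPM, in which counts are scaled to a common library size with TMM factors. On the first principal component of all genes, LV MCT replicate 3 (-21.0) and RV MCT replicate 4 (-30.3) scored like saline libraries. Fold changes of the members for MCT against saline are therefore given with and without them. Every remaining MCT library scored higher than any saline library. The 2 genes with most counts over all libraries took 6.99% to 15.1% of the counts in 12 libraries, 3 in each group, and 23.9% to 31.0% in the other 8, 2 in each group. Whether each library of a group is a separate animal is not stated in the labels, and p-values therefore reflect only the spread among these libraries.

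Atp2a2 was one of the most abundant transcripts, at rank 26 of 10929 by CPM, and its counts ran from 5400 to 23667 per library. In the RV, MCT replicates 1 to 5 stood at 1197, 1853, 2278, 3518 and 2712 CPM. RV saline replicates stood at 3176, 3773, 3185, 4009 and 3431 CPM. Of the RV MCT libraries, 4 lay below every saline library, and replicate 4 lay within the saline range. In the LV, MCT replicates stood at 1749, 2531, 3326, 2288 and 1566 CPM, and saline replicates at 3239, 4064, 4070.4, 3974 and 3463 CPM. Here too 4 MCT libraries lay below every saline library, and replicate 3 lay within their range. Both exceptions are the libraries that stood among the saline libraries over all genes. With all libraries the MCT and saline groups overlapped for all 3 members in both ventricles, whereas they lay apart for 2.38% of all genes in the RV and 7.04% in the LV.

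**Figure D1:**
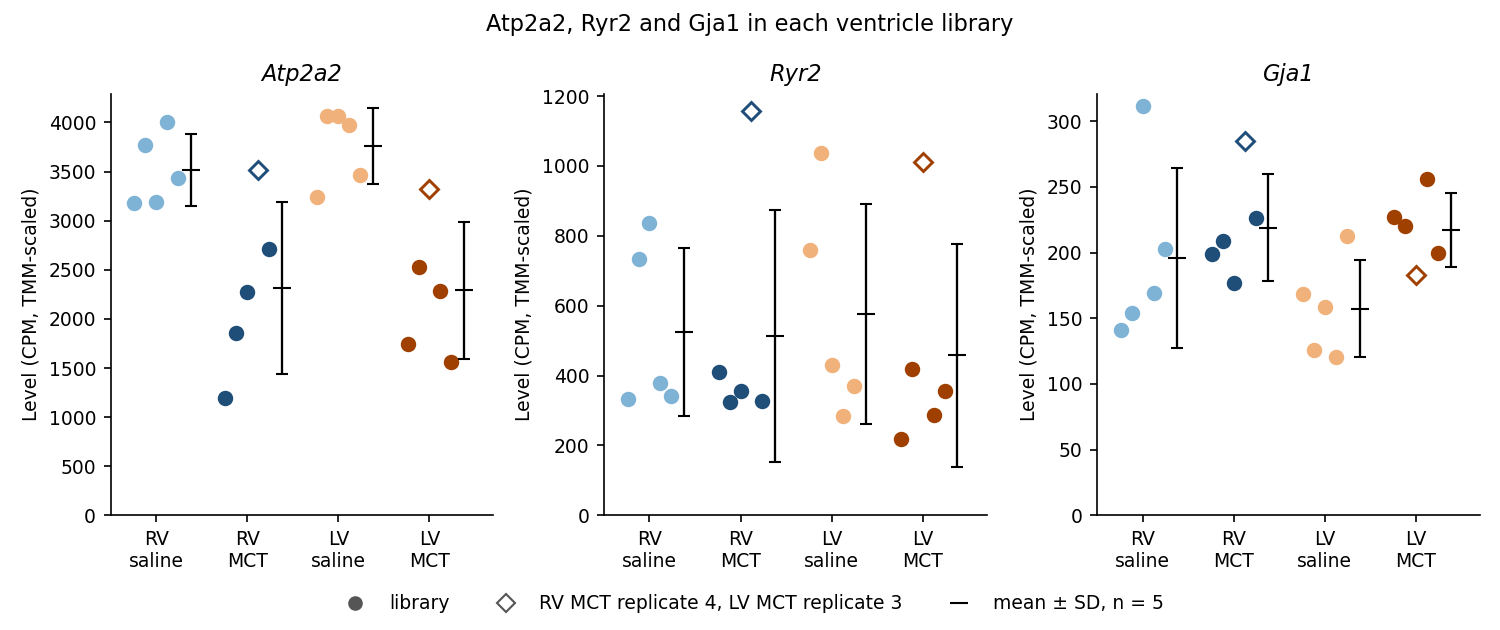
CPM of Atp2a2, Ryr2 and Gja1 in each of the 20 libraries, by group, with the mean and SD of 5 libraries; open diamonds are RV MCT replicate 4 and LV MCT replicate 3. For Atp2a2 the MCT libraries lie below the saline libraries except for the open diamonds, while Ryr2 groups overlap widely.

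Mean Atp2a2 was 2312 ± 876 CPM after MCT and 3515 ± 368 CPM after saline in the RV (SD, n = 5). In the LV it was 2292 ± 698 and 3762 ± 385 CPM. MCT against saline gave a log2 fold change of -0.60 for the RV (SE 0.23, 95% interval -1.08 to -0.13) and -0.71 for the LV (SE 0.23, interval -1.19 to -0.24), or -34.2% and -39.1% as point estimates. Neither passed the threshold over all genes: the edgeR adjusted p was 0.18 in the RV and 0.0536 in the LV. In the RV, 0.274% of all genes passed it, and in the LV 9.52%. At an unadjusted p under 0.05, where edgeR counted Atp2a2 as lower in both ventricles, 7.56% of all genes were lower in the RV and 11.8% in the LV. Abundant genes as a class also stood lower after MCT. A mean log2 CPM over 9 was reached by 170 genes, Atp2a2 and Ryr2 among them. Their median log2 fold change was -0.18 (RV) and -0.38 (LV), against 0.012 and 0.030 for all genes tested. How much of the shift of Atp2a2 or Ryr2 is shared with this class was not tested.

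Without RV MCT replicate 4 and LV MCT replicate 3 Atp2a2 was called lower in both ventricles. The log2 fold change was then -0.81 in the RV (edgeR adjusted p = 0.0169) and -0.89 in the LV (edgeR adjusted p = 0.00513), and the groups no longer overlapped. Calls became more frequent over all genes as well, at 9.68% in the RV and 18.1% in the LV, and groups lay apart with MCT lower in 4.94% and 8.67% of genes. Leaving out RV MCT replicate 4 alone also gave a call in the RV (-0.81, edgeR adjusted p = 0.0348), as did leaving out LV MCT replicate 3 alone in the LV (-0.89, edgeR adjusted p = 0.0133), where 6.34% and 15.2% of all genes were called. These libraries were left out because they looked like saline libraries, which favours a call. Over 27 alternatives the log2 fold change stayed below 0 in both ventricles. It passed the threshold in 2 of the 27 in the RV and in 10 in the LV, among them DESeq2 (-0.73, DESeq2 adjusted p = 0.0202) and limma voom with quality weights (-0.76, limma adjusted p = 0.00179). Of all genes, DESeq2 called 13% in the LV and limma voom 26.6%.

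**Figure D2:**
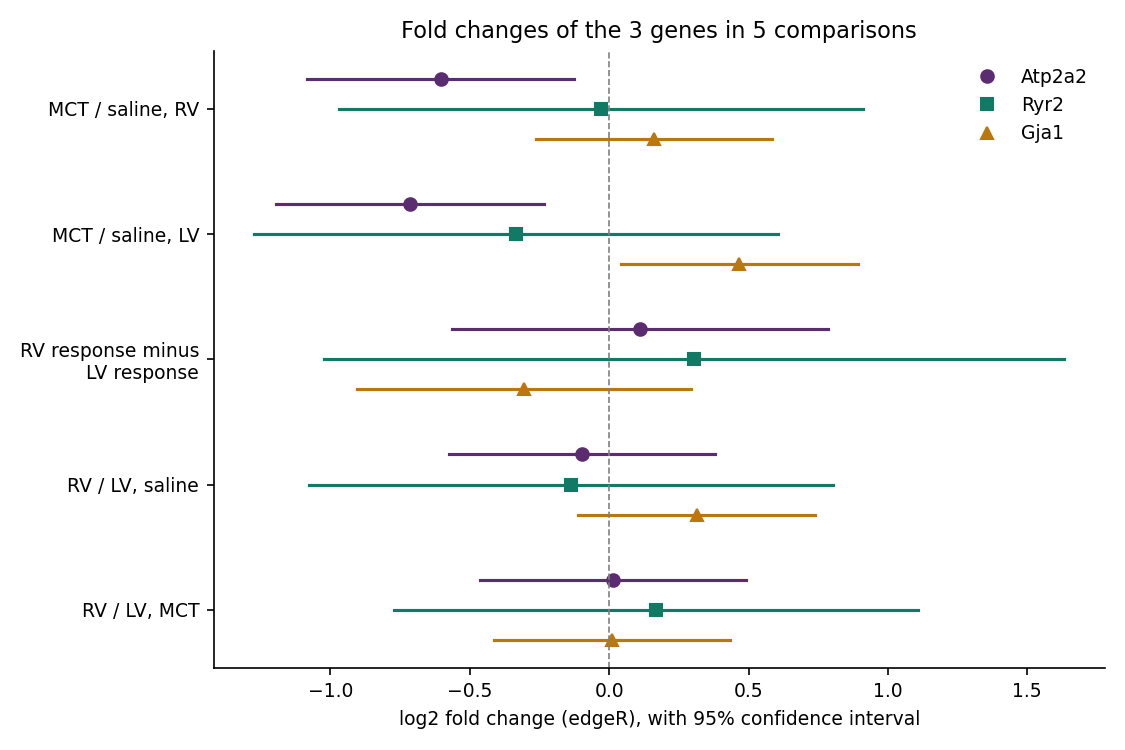
Log2 fold change of each gene with its 95% interval from the edgeR fit over 20 libraries, for MCT against saline in each ventricle, their difference, and RV against LV within each treatment. The Atp2a2 intervals for MCT lie below 0 in both ventricles, the Gja1 interval in the LV lies above 0, and the Ryr2 intervals are the widest; these intervals are not adjusted for the number of genes.

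Atp2a2 also varied more among MCT libraries than among saline libraries. The coefficient of variation was 37.9% in the RV and 30.4% in the LV after MCT, against 10.5% and 10.2% after saline. The highest RV MCT library held 2.94 times the CPM of the lowest, and the highest RV saline library 1.26 times. That RV MCT library was replicate 4, and the highest LV MCT library was replicate 3. Both scored like saline libraries over all genes, so the spread after MCT includes them. Counting alone gives a coefficient of variation of at most 1.36% at these counts, so counting error is a small part of the spread. The difference in spread was not tested.

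The separate LV and RV shifts of Atp2a2 were of like size. Their difference was 0.11 on the log2 scale (SE 0.32, 95% interval -0.56 to 0.78, edgeR adjusted p = 0.9999), an interval that holds 0 and at its upper end exceeds the size of either shift. No gene of the 10929 was called for this difference (0%), and 305 had an unadjusted p under 0.05 in edgeR, while DESeq2 and limma voom called 1 gene each. In saline libraries Atp2a2 stood at nearly the same level in both ventricles, with a log2 fold change of RV against LV of -0.098 (SE 0.23, interval -0.58 to 0.38, edgeR adjusted p = 0.973). After MCT it was 0.012 (SE 0.23, interval -0.46 to 0.49, edgeR adjusted p = 0.99996). Of all genes, 0.0732% were called between the ventricles after saline and 0% after MCT, where 203 genes had an unadjusted p under 0.05 in edgeR and DESeq2 and limma voom called 0.

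Ryr2 was less abundant, at rank 165 by CPM, with 1290 to 4113 counts per library. In the RV, MCT replicates 1 to 5 stood at 409, 325, 356, 1156 and 326 CPM, and saline replicates at 334, 734, 837, 378 and 340.4 CPM. The RV MCT group held 4 libraries between 325 and 409 CPM and 1 far above them, and the saline group overlapped it. In the LV, MCT replicates stood at 218, 419, 1012, 286 and 354 CPM, and saline replicates at 760.0, 1036, 431, 285 and 369 CPM. Again 1 MCT library, replicate 3, stood far above the other 4, and the groups overlapped.

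Mean Ryr2 was 514 ± 360 CPM after MCT and 525 ± 241 CPM after saline in the RV, and 458 ± 318 and 576 ± 314 CPM in the LV (SD, n = 5). For MCT against saline the log2 fold change came to -0.029 (RV: SE 0.45, 95% interval -0.97 to 0.91, edgeR adjusted p = 0.987) and -0.33 (LV: SE 0.45, interval -1.27 to 0.61, edgeR adjusted p = 0.703). In the RV the interval holds values from 0.511 to 1.88 times the saline level, so Ryr2 is not shown to be unaltered. Without RV MCT replicate 4 and LV MCT replicate 3 the values were -0.57 (edgeR adjusted p = 0.335) and -0.85 (edgeR adjusted p = 0.102). Over 27 alternatives the RV value was above 0 in 9. Of these, 6 left out a single library, and library totals (0.066), the month as a term (0.096) and November alone (1.04) gave the others. The difference between the responses was 0.30 (SE 0.64, interval -1.02 to 1.63, edgeR adjusted p = 0.9999). Between the ventricles the log2 fold change of RV against LV was -0.14 after saline (SE 0.45, edgeR adjusted p = 0.980) and 0.17 after MCT (SE 0.45, edgeR adjusted p = 0.99996).

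The spread of Ryr2 among libraries of a group was large for a gene of its level. Its biological coefficient of variation in the edgeR fit was 48.9%, where the trend at its abundance was 26.3%, and it exceeded 99.5% of the 200 genes nearest in level. For Atp2a2 the value was 26.1% against a trend of 26.9%, and for Gja1 23.4% against 25.9%.

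This spread moved with the share of counts taken by the 2 top genes. The 12 libraries with a low share held Ryr2 at 218 to 419 CPM after MCT and 285 to 431 CPM after saline. The 8 libraries with a high share held it at 354 to 1156 CPM after MCT and 734 to 1036 CPM after saline. Every saline library with a high share thus stood above every saline library with a low share, whereas the MCT libraries of both kinds overlapped. With the 4 groups kept in the fit, Ryr2 was 2.32 times as high in the 8 libraries as in the 12 (95% interval 1.79 to 3.003, log2 difference 1.21, SE 0.18, edgeR adjusted p = 4.0e-05). This division of the libraries, at the largest gap in the share, was made after seeing the data and is no group of the study. It went with many genes, as 24.9% of the 10929 were called and 14.9% were called higher, with Ryr2 at rank 280 by p. RV MCT replicate 4 and LV MCT replicate 3 both belong to the 8.

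**Figure D3:**
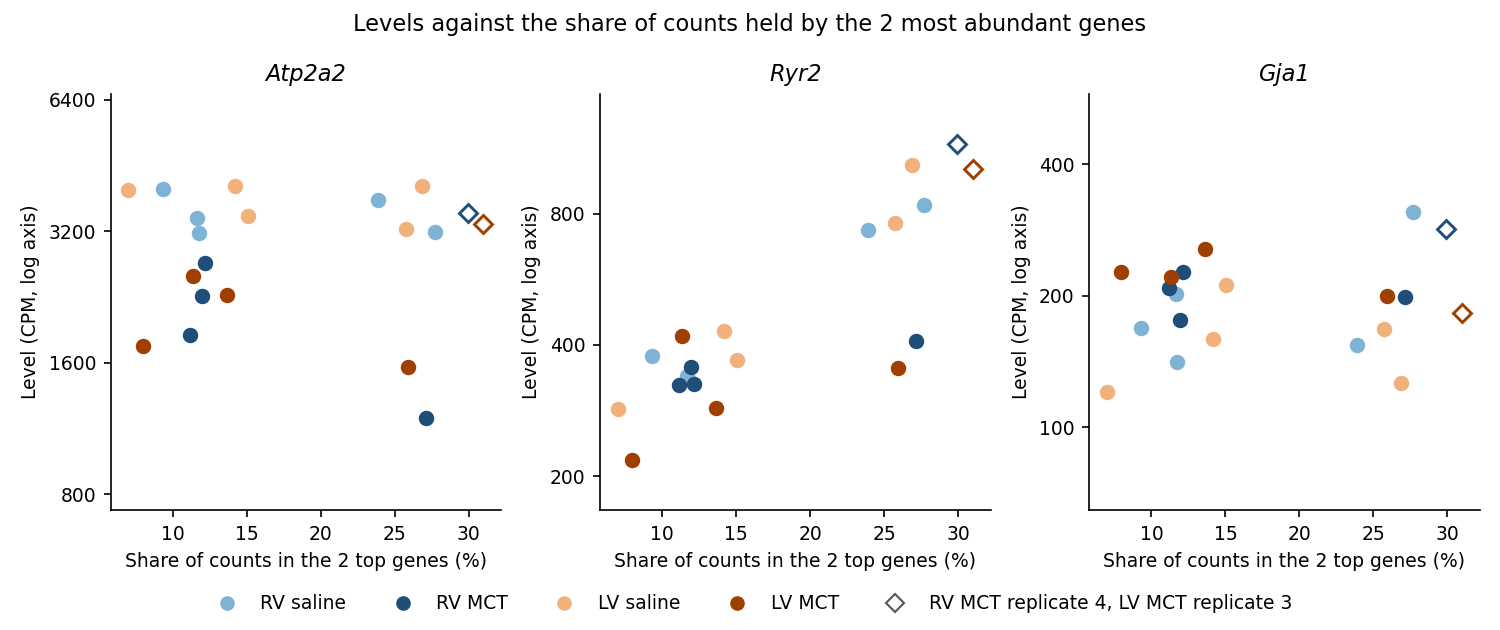
CPM of each gene (log axis) against the percent of a library's counts in the 2 top genes, for all 20 libraries by group, with RV MCT replicate 4 and LV MCT replicate 3 as open diamonds. Ryr2 is higher in most of the 8 libraries at 23.9% to 31.0% than in the 12 at 6.99% to 15.1%. RV MCT replicate 1 and LV MCT replicate 5 are among the 8 but lie within the range of the 12. Atp2a2 and Gja1 show no such step over the 20 libraries.

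The Ryr2 step stayed past the threshold in each of 20 fits that left out 1 library, with log2 differences of 1.07 to 1.33. Without RV MCT replicate 4 and LV MCT replicate 3 it was 0.89 (edgeR adjusted p = 0.000544, with 21.1% of all genes called). In saline libraries alone it was 1.22 (edgeR adjusted p = 9.71e-06), and in MCT libraries alone 1.16, which did not pass (edgeR adjusted p = 0.0664). Of the 4 MCT libraries with a high share, RV MCT replicate 4 and LV MCT replicate 3 stood at 1156 and 1012 CPM. The other 2, RV MCT replicate 1 (409 CPM) and LV MCT replicate 5 (354 CPM), lay within the range of MCT libraries with a low share. Within the RV it was 1.195 and within the LV 1.24 (edgeR adjusted p = 0.00643 and 0.00942). Of all genes, 19.8% were called in the saline fit, 8.37% in the RV fit and 9.99% in the LV fit. The description codes of the libraries look like dates: per group, 3 fall in May or June and 2 in November. Within May and June the step was 1.05 (edgeR adjusted p = 0.00802, with 9.88% of all genes called), and within November it was 1.07 and did not pass (edgeR adjusted p = 0.288). Total counts ran from 3272420 to 6414662 in the 8 libraries and from 4439487 to 9227104 in the 12, and the part of depth in the step was not tested.

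Over the 20 libraries the other members showed no such step. The log2 difference was 0.028 (SE 0.16, 95% interval -0.31 to 0.37, edgeR adjusted p = 0.930) for Atp2a2 and 0.067 (SE 0.15, interval -0.23 to 0.37, edgeR adjusted p = 0.791) for Gja1. Without RV MCT replicate 4 and LV MCT replicate 3 it was -0.28 for Atp2a2 (SE 0.14, edgeR adjusted p = 0.152) and 0.047 for Gja1. With library totals it was -0.24 for Atp2a2 (SE 0.13, edgeR adjusted p = 0.136) and -0.18 for Gja1. None of these passed. Among the 12 libraries with a low share, the 6 MCT libraries held Atp2a2 at 1749 to 2712 CPM and the 6 saline libraries at 3176 to 4070.4 CPM, with no overlap. These 12 leave out RV MCT replicate 4 and LV MCT replicate 3, the only MCT libraries within the saline range of Atp2a2. The lack of overlap therefore followed from the separation already seen without them. Neither it nor the fold changes within the 12 are a separate check. Over all genes, 3.86% lay apart with MCT lower in this way. Within these 12 its log2 fold change came to -0.64 for the RV (SE 0.20, edgeR adjusted p = 0.146) and -0.83 for the LV (SE 0.20, edgeR adjusted p = 0.0178), and 0.687% and 11.4% of all genes were called. Within the 8, with 2 libraries per group, it was -0.57 and -0.58 (edgeR adjusted p = 0.852 and 0.881). For Ryr2 the 12 libraries gave -0.068 for the RV (SE 0.22, edgeR adjusted p = 0.941) and -0.25 for the LV (SE 0.22, edgeR adjusted p = 0.498), with SEs below those over all libraries.

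Gja1 was the least abundant of the 3, at rank 472 by CPM, with 360 to 2754 counts per library. In the RV, MCT replicates 1 to 5 stood at 198.5, 208, 177, 285 and 227 CPM, and saline replicates at 141, 154, 311, 169 and 203 CPM. RV saline replicate 3 was the highest of all 20 libraries, and the RV groups overlapped. In the LV, MCT replicates stood at 227, 220.5, 183, 256 and 199.8 CPM, and saline replicates at 168, 126, 159, 121 and 212 CPM. The LV groups overlapped through saline replicate 5, which lay above MCT replicates 3 and 5.

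Mean Gja1 was 219 ± 40.9 CPM after MCT and 196 ± 68.6 CPM after saline in the RV, and 217 ± 27.9 and 157 ± 37.0 CPM in the LV (SD, n = 5). In the RV the log2 fold change came to 0.16 (SE 0.20, 95% interval -0.26 to 0.58, edgeR adjusted p = 0.762). The LV value was 0.47 (SE 0.20, interval 0.042 to 0.89), a point estimate of 38.2% more, which did not pass over all genes (edgeR adjusted p = 0.153). Its unadjusted p there was 0.0328 in edgeR, and 13.5% of all genes were higher in the LV at an unadjusted p under 0.05. The difference between the responses was -0.30 (SE 0.29, interval -0.90 to 0.29, edgeR adjusted p = 0.9999).

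The LV value of Gja1 was much the same with RLE (0.45) and upper quartile factors (0.47) as with TMM, and moved when scaling factors were left out. With library totals in place of TMM it was 0.84 and passed (edgeR adjusted p = 0.0138), but this scaling moved the median of all genes by 0.36 in the LV and 0.14 in the RV. Limma voom with quality weights also gave a call in the LV (0.50, limma adjusted p = 0.0348). Both fits called many genes there, 19.6% with library totals and 26.6% with voom. Library totals also moved Atp2a2 in the LV, from -0.71 with TMM to -0.41 (edgeR adjusted p = 0.155). Over 27 alternatives the LV value of Gja1 stayed above 0. Without RV MCT replicate 4 and LV MCT replicate 3, Gja1 stood at 0.049 in the RV (edgeR adjusted p = 0.924) and 0.52 in the LV (edgeR adjusted p = 0.0873). Between the ventricles the log2 fold change of RV against LV was 0.31 after saline (SE 0.20, interval -0.11 to 0.74, edgeR adjusted p = 0.763) and 0.0094 after MCT (SE 0.20, interval -0.41 to 0.43, edgeR adjusted p = 0.99996).

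**Figure D4:**
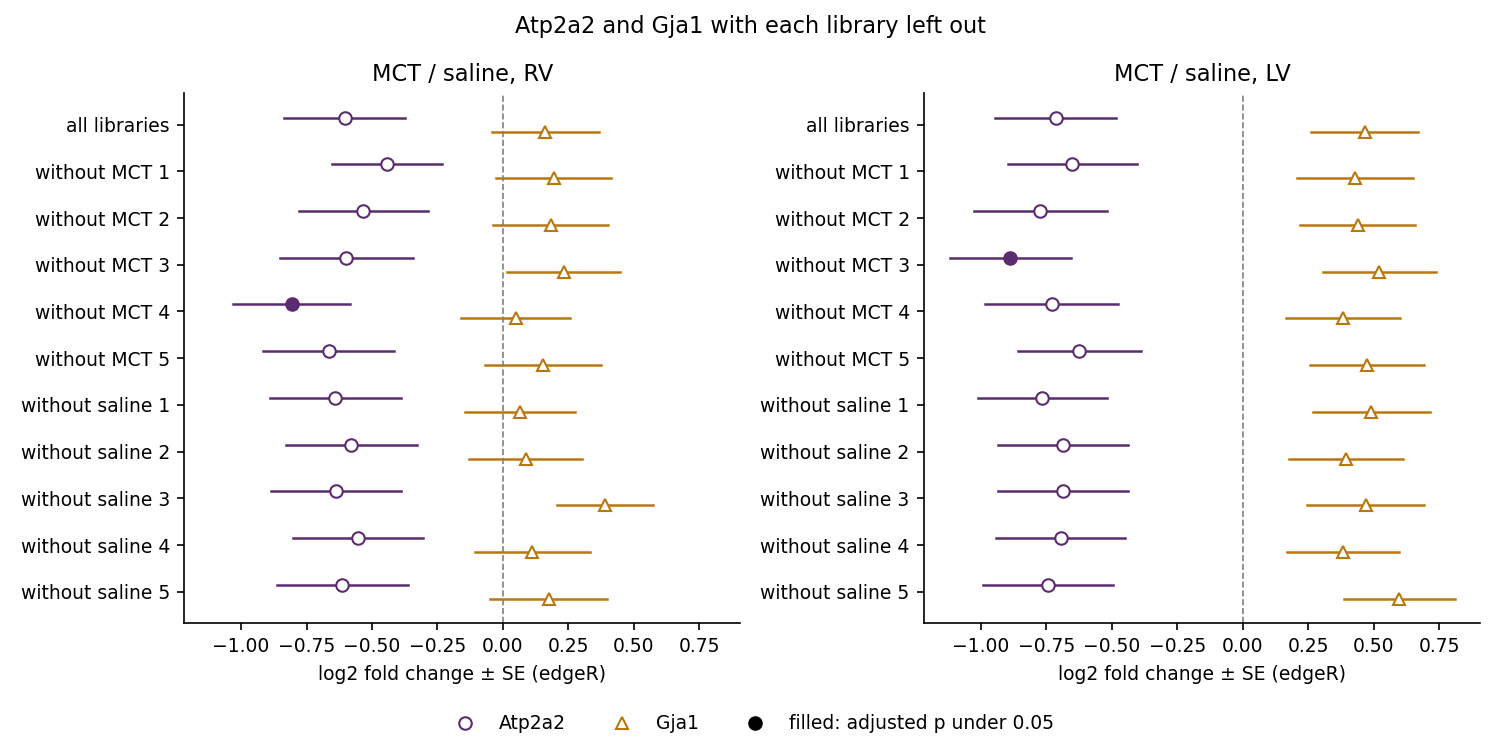
Log2 fold change (± SE) of Atp2a2 and Gja1 for MCT against saline in each ventricle, with all libraries and with each library of that ventricle left out in turn. Filled points have an edgeR adjusted p under 0.05. Atp2a2 fills only where RV MCT replicate 4 or LV MCT replicate 3 is absent, and spans -0.81 to -0.44 (RV) and -0.89 to -0.62 (LV) with 1 library out.

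Within the months the values of the members diverged in the RV. Atp2a2 stood at -0.91 within May and June (SE 0.27, edgeR adjusted p = 0.0925) and -0.26 within November (SE 0.29, edgeR adjusted p = 0.970). Ryr2 stood at -0.78 and 1.04, and Gja1 at -0.033 and 0.46, with edgeR adjusted p of 0.386 or more. The November RV set holds 2 MCT libraries, of which replicate 4 is one, so the month and that library cannot be told apart. In the LV, Atp2a2 stood at -0.61 and -0.95 (edgeR adjusted p = 0.397 and 0.0978), Ryr2 at -0.46 and -0.033, and Gja1 at 0.45 in both. RV against LV after MCT was -0.49 within May and June and 0.69 within November for Atp2a2 (edgeR adjusted p = 0.691 and 0.675). For Ryr2 it was -0.56 and 1.21 (edgeR adjusted p = 0.835 and 0.665), and for Gja1 -0.091 and 0.17. The values over both months thus average opposite signs. LV MCT replicate 3 belongs to May and June and RV MCT replicate 4 to November, so month and library cannot be told apart here. No member passed within a month.

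Exact two-sided permutation tests of log2 CPM were run, 12 in all. For 5 against 5 libraries the smallest p is 0.00794. Atp2a2 reached p = 0.0317 in the RV and 0.0159 in the LV, and Gja1 0.0238 in the LV, each 0.127 after Benjamini-Hochberg adjustment in these exact permutation tests. The other 9 had adjusted values of 0.705 or more. Without RV MCT replicate 4 the adjusted value for Atp2a2 in the RV was 0.0952 (exact permutation test). Without LV MCT replicate 3 the LV values were 0.0952 for Atp2a2 and 0.127 for Gja1 (exact permutation tests). None of these passed. Both Atp2a2 values came from an unadjusted p of 0.00794 (exact permutation tests), the smallest possible with that library left out. Over 12 tests, 1 such p alone is adjusted to 0.0952, so neither could have passed by itself. These tests therefore cannot decide whether Atp2a2 differed without those libraries.

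Same-numbered RV and LV libraries of a treatment carry the same date-like code, but the labels do not say that they share an animal. The comparisons between ventricles above treat them as independent. With each such pair as a block, the difference of the responses was 0.068 for Atp2a2, 0.26 for Ryr2 and -0.28 for Gja1 (edgeR adjusted p = 0.9999 for each). RV against LV after saline was then -0.098, -0.087 and 0.28 (edgeR adjusted p = 0.715 or more), and after MCT -0.030, 0.17 and 0.0020 (edgeR adjusted p = 0.9999 for each).

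Ratios of counts within a library do not depend on scaling. Per 100 counts of Atp2a2, RV MCT replicates 1 to 5 held 16.6, 11.3, 7.75, 8.09 and 8.35 counts of Gja1, and RV saline replicates 4.45, 4.09, 9.78, 4.22 and 5.90. RV saline replicate 3, which held most Gja1, was the 1 saline library within the MCT range. LV MCT replicates held 13.0, 8.71, 5.49, 11.2 and 12.8 counts, and LV saline replicates 5.20, 3.10, 3.90, 3.04 and 6.13. Of the LV MCT libraries, 4 lay above all saline libraries, and replicate 3 lay below LV saline replicate 5.

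The mean was 10.4 ± 3.73 Gja1 counts per 100 Atp2a2 counts after MCT and 5.69 ± 2.40 after saline in the RV, and 10.2 ± 3.15 and 4.27 ± 1.35 in the LV (SD, n = 5). The mean log2 ratio was 0.89 higher after MCT in the RV (exact permutation p = 0.0317) and 1.25 higher in the LV (exact permutation p = 0.0159). Over the 12 ratio tests the adjusted values were 0.19 for both, so neither passed. Without RV MCT replicate 4 the RV difference was 0.97 (exact permutation adjusted p = 0.238). Without LV MCT replicate 3 the LV difference was 1.46 (exact permutation adjusted p = 0.0952), and neither passed then. This LV value came from an unadjusted exact permutation p of 0.00794, again the smallest possible. Alone over the 12 ratio tests it could not have passed. Yield per transcript may differ between genes, so only the shift of the ratio between groups is read, not the ratio as a comparison of levels. The ranks of the genes by CPM carry the same limit.

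For Ryr2 the mean was 22.4 ± 10.3 counts per 100 of Atp2a2 after MCT and 15.1 ± 7.48 after saline in the RV, and 18.9 ± 7.65 and 15.5 ± 8.37 in the LV (SD, n = 5). The exact permutation tests gave adjusted values of 0.571 and 0.655. RV MCT replicate 1, at 34.2, held the highest value of this ratio and also the least Atp2a2 by CPM.

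**Figure D5:**
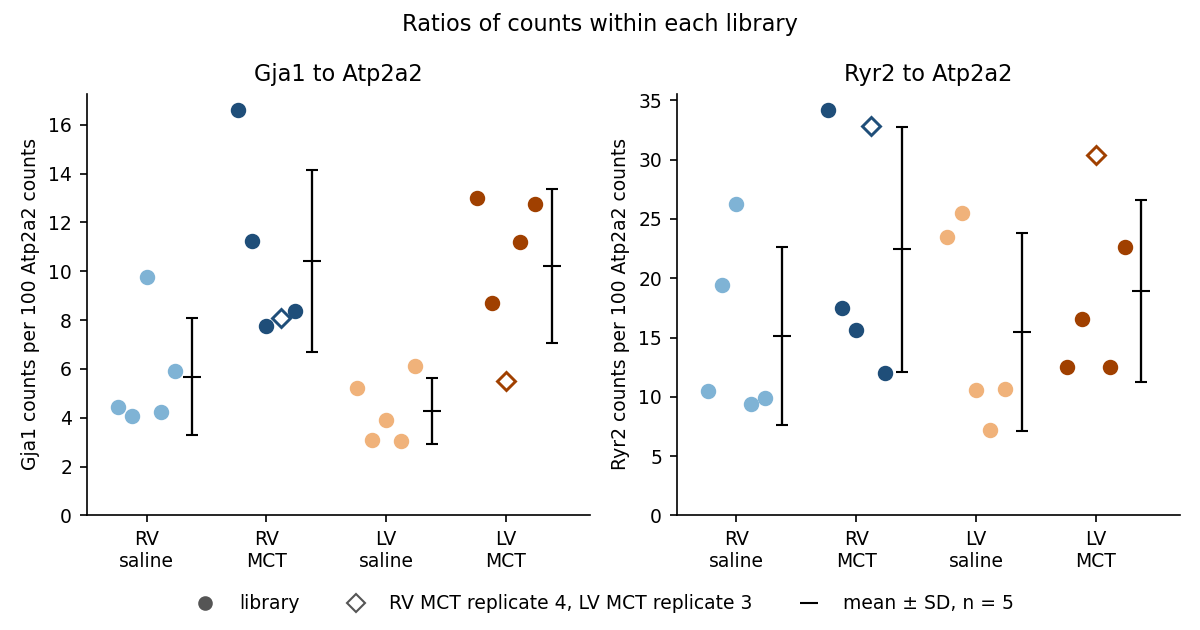
Counts of Gja1 and of Ryr2 per 100 counts of Atp2a2 in each library, by group, with mean and SD of 5 libraries. Open diamonds are RV MCT replicate 4 and LV MCT replicate 3. Gja1 per 100 Atp2a2 lies higher after MCT in most libraries of both ventricles, with 1 overlapping saline library in the RV and 1 overlapping MCT library in the LV.

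Over the 20 libraries, which include the MCT and saline groups, log2 CPM of Atp2a2 and Ryr2 had a Pearson correlation of 0.43, Atp2a2 and Gja1 of -0.36, and Ryr2 and Gja1 of 0.029. These describe libraries that share treatment and composition and carry no test. Among 7026 genes with a mean log2 CPM of at least 3, Atp2a2 was most like ENSRNOG00000005130 (Pearson 0.976, Spearman 0.94), and 401 genes had a Pearson correlation over 0.8 with it. Ryr2 was most like ENSRNOG00000005292 (Pearson 0.979, Spearman 0.944), with 324 genes over 0.8. For Gja1 no gene exceeded 0.8. The names of these genes are not paired with the IDs in the files used here.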

How the data were processed

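The deposited values were raw read counts per Ensembl gene made by the authors, with each column matched to its library. Per the labels' protocols, total RNA was made into QuantSeq 3′ libraries and sequenced in 2 runs. The submitters' processing notes name STAR 2.7.10a, HTSeq 0.11.3 and the builds mRatBN7.2 and rn6, with no role for either build. Neither a strand setting, an annotation release nor a way of joining the runs is given in the sources used here, so overlapping genes could share counts. Total counts ran from 3272420 to 9227104, and counting error of the members is small beside the spread between libraries.

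Counts were fitted with edgeR 4.0.16 in R 4.3.3: filterByExpr, TMM, a robust quasi-likelihood fit with 1 mean per group to the 20 libraries together, and a Benjamini-Hochberg threshold of 0.05 over 10929 genes. These genes held 99.8% of the counts. The SE came from the F statistic of that fit, and log2 CPM used a prior count of 2. The exact permutation tests of log2 CPM and of ratios were two-sided. The fitting script was tested on simulated data.

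The 3 members were named by ID. The most alike gene of a member was the one with the highest Pearson correlation of log2 CPM, and at most 2 IDs are printed. The members and lists were chosen with earlier results of these data known. The files do not pair IDs with names, and the RefSeq gene table (assembly GRCr8) held 0 Ensembl IDs, so lists of other calcium cycling, junction and cell type marker genes were not analysed here and the tissue labels were not checked against markers. Promoters were matched by symbol for 3 of 3 members.

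Alternatives were RLE, upper quartile and no scaling factors, other filters on low counts, the month as a term and each month alone, only the groups compared, a replicate block, a covariate for the share of the 2 top genes, DESeq2 1.42.0, limma 3.58.1 voom, leaving out each library, and leaving out RV MCT replicate 4 with LV MCT replicate 3. Those on the 2 sets of libraries by share were chosen after seeing the data.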

Additional observations from a re-analysis of the deposited data

Results flagged for a closer look

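Of 24 sets of 5 values looked at, which were the CPM of each gene and each ratio per 100 counts in each group, 4 held a library far from the others, and chance picks about 1 in 20. Ryr2 stood at 1156 CPM in RV MCT replicate 4, and the gap to the next library was 0.898 of the range of the group, above the limit of 0.71. Ryr2 stood at 1012 CPM in LV MCT replicate 3, with a gap of 0.747 of the range. Per 100 counts of Gja1, Ryr2 stood at 406 counts in RV MCT replicate 4 (gap 0.762) and 554 in LV MCT replicate 3 (gap 0.795), and these rest on the same Ryr2 counts. On the log2 scale only the Ryr2 level in RV MCT replicate 4 stayed above the limit (gap 0.817), and the other gaps were 0.575, 0.653 and 0.611. Both libraries scored like saline libraries over all genes, and both belong to the 8 with a high share of counts in the 2 top genes.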

How the results depend on the processing

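All values are log2 differences or numbers of genes called, and the cause was not tested in any case. For MCT in the LV, Atp2a2 (-0.71) passed with RLE (-0.73, edgeR adjusted p = 0.0489), upper quartile (-0.71), DESeq2 (-0.73), voom (-0.76), the share as covariate (-0.72), the set of libraries as a term (-0.72), the low-share libraries alone (-0.83) and without both RV MCT replicate 4 and LV MCT replicate 3 (-0.89). Without both it also passed in the RV (-0.81). Gja1 in the LV passed with library totals (0.84) and voom (0.50).

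Most signs that reversed belonged to values near 0. With library totals, Atp2a2 gave -0.0075 for RV against LV after MCT, 0.089 after saline, -0.096 for the difference of responses and -0.24 for the high-share libraries. Gja1 gave -0.076 after MCT and -0.18 for the high share, and Ryr2 0.066 for MCT in the RV and 0.025 for RV against LV after saline. In the permutation tests library totals gave 0.083 (Atp2a2, RV against LV after saline), -0.024 (Gja1, after MCT), 0.016 (Ryr2, MCT in the RV) and 0.093 (Ryr2, after saline). Voom reversed Atp2a2 at the high share (-0.050) and Gja1 after MCT (-0.17). The month term reversed Atp2a2 after MCT (-0.017) and Ryr2 in the RV (0.096). Gja1 after MCT was -0.0034 without a filter, -0.0089 with the covariate, -0.20 in low-share libraries and -0.16 without both libraries. Atp2a2 after MCT was -0.043 in high-share libraries and -0.016 without both, where its step at the high share was -0.28.

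Within May and June, Atp2a2 gave -0.49 after MCT, -0.31 for the difference of responses and -0.050 at the high share. Gja1 gave -0.033 for MCT in the RV and -0.091 after MCT, and Ryr2 -0.56 after MCT and -0.32 for the difference. The ratios gave -0.0045 (Ryr2 to Atp2a2, MCT in the LV), -0.079 (the same after saline) and -0.21 (Ryr2 to Gja1 after MCT). Within November, Ryr2 gave 1.04 for MCT in the RV and 0.13 after saline, and its step at the high share lost its call (1.07), as it did in MCT libraries alone (1.16). Atp2a2 and Gja1 at the high share gave -0.087 and -0.016, Gja1 for the difference 0.0067, and the ratios -0.54 (Gja1 to Atp2a2 after MCT) and 0.32 (Ryr2 to Gja1, MCT in the RV). At the high share Atp2a2 was -0.062 in saline libraries, and Gja1 was -0.034 in MCT libraries and -0.21 in the LV.

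Genes called in the RV (30) were 402 with DESeq2, 48 with library totals, 275 with voom, 19 with the month term, 18 without a filter, 188 in May and June, 0 in November, 0 with only the groups compared, 0 and 78 in high- and low-share libraries, 159 with the set term, 259 with the covariate and 1076 without both libraries. In the LV (1040) they were 2142 with library totals, 2911 with voom, 0 in May and June, 243 in November, 0 in high-share libraries, 1585 with the covariate and 2016 without both. Between the ventricles after saline (8) they were 88 with DESeq2, 13 with RLE, 125 with voom, 0 in November, 0 in high-share libraries, 80 with only the groups compared, 28 with the set term, 42 with the covariate and 44 without both. After MCT (0) 3 were called in May and June. The difference of responses (0) gave 1 with DESeq2, 1 with voom and 1 without both.

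With the replicate number as a block Atp2a2 in the LV was -0.76 and passed (edgeR adjusted p = 0.0454), and the block called 0 RV genes and 549 LV genes. This block joins MCT and saline libraries, whose codes mostly differ. For the comparisons between ventricles the block was the RV and LV pair with the same code, and it changed no call of a member, with Atp2a2 at -0.030 after MCT. Not every pair deviated together: deviations from group means correlated at -0.23 to 0.21 for RV MCT with RV saline, at -0.32 to 0.22 for the LV, and at -0.35 to 0.24 (MCT) and -0.18 to 0.59 (saline) for RV with LV.

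Leaving out 1 library gave these ranges. For MCT in the RV, Atp2a2 ran from -0.81 to -0.44 and Ryr2 from -0.57 to 0.20. For MCT in the LV Atp2a2 ran from -0.89 to -0.62. For the difference of responses Atp2a2 ran from -0.092 to 0.29 and Ryr2 from -0.23 to 0.82. For RV against LV after MCT Atp2a2 ran from -0.19 to 0.18, Gja1 from -0.10 to 0.091 and Ryr2 from -0.37 to 0.68, and after saline Ryr2 ran from -0.37 to 0.18. At the high share Atp2a2 ran from -0.12 to 0.14 and Gja1 from -0.078 to 0.12. In the permutation tests Atp2a2 after MCT ran from -0.20 to 0.19, Gja1 after MCT from -0.097 to 0.075, Ryr2 after MCT from -0.16 to 0.53, Ryr2 after saline from -0.30 to 0.17 and Ryr2 in the RV from -0.46 to 0.085. Ratios ran from -0.18 to 0.13 (Gja1 to Atp2a2 after MCT), -0.22 to 0.23 (Ryr2 to Atp2a2 after saline) and -0.061 to 0.58 (Ryr2 to Gja1 after MCT). Genes called ran from 0 to 707 in the RV, 331 to 1699 in the LV, 0 to 11 after saline and 0 to 2 after MCT.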
